A study of Mus musculus with 43 samples.

Results

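Complex I, the NADH:ubiquinone oxidoreductase of the respiratory chain, was followed at the level of its transcripts in whole mouse lung. Its members were all genes of the count table whose mouse symbol begins with Nduf, together with the mitochondrially encoded ND1, ND2, ND3, ND4, ND4L, ND5 and ND6. The rule took 54 of 24475 genes, 47 of them nuclear and 7 on the mitochondrial chromosome, and used no measured value. All 54 passed the filter on low counts, and 15979 genes were tested.

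The mice were females of 8 to 12 weeks on a hybrid 129S6/C57BL/6 background, and per the design text those used to assess the antibodies had human sequence in place of mouse Il4, Il33 and the Il4ra ectodomain. Whether mice without antibody carried these alleles too is not stated. The combination group received both antibodies, anti-IL-33 and anti-IL-4Rα (n = 5), the anti-IL-4Rα group received that antibody with an isotype control antibody (n = 7), the anti-IL-33 group received anti-IL-33 with the isotype control (n = 6), and the isotype group received the control antibody alone (n = 7). These 4 groups had intranasal house dust mite extract (HDM) 3 times a week for 19 weeks. HDM without antibody was given for 19 weeks (n = 7) or for 11 weeks (n = 6), and the remaining mice received saline (n = 5). The exposure times are those of the labels, since the design text lists other ones beside 19 weeks, and the labels do not give when antibody dosing began. They also give no duration for saline, and 8 to 12 weeks cannot be the age after 19 weeks of HDM. Ages at collection are therefore not known and could differ between the groups. Each library has its own number in the labels and was taken as 1 mouse, called here by its replicate number, so p-values measure the spread between these libraries.

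Complex I oxidises NADH, passes the electrons through a flavin and a chain of iron-sulfur clusters to ubiquinone, and pumps protons across the inner mitochondrial membrane. It is L-shaped, with a matrix arm that carries the redox centres and a membrane arm that carries the proton pumps. The ND subunits, all in the membrane arm, are transcribed and translated inside mitochondria, whereas every other subunit is transcribed in the nucleus and imported, so that the enzyme is assembled from the products of both genomes. By role the members were 7 mitochondrially encoded core subunits, 7 nuclear core subunits conserved in bacteria, 9 supernumerary subunits of the matrix arm, 20 of the membrane arm, 8 assembly factors, 2 relatives now placed outside complex I (Ndufa4 and Ndufa4l2) and 1 pseudogene, Ndufs5-ps.

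The ND genes are packed so closely that neighbours share bases, which bears on how reads can be assigned to them. The ends and starts of the 2 pairs that overlap are shown 5′ to 3′ on the strand of each gene (GRCm38, mitochondrial chromosome), with the shared bases in capitals. ND4L ends at chrMT:10134-10173 and ND4 starts at chrMT:10167-10206 on the same strand, sharing 7 bases. ND5 ends at chrMT:13526-13565 and ND6 ends at chrMT:13552-13591 on the opposite strand, sharing 14 bases.
ND4L: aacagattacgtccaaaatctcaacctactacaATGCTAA
ND4: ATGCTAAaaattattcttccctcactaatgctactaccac
ND5: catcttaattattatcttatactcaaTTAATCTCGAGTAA
ND6: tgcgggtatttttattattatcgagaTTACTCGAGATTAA
ND6 was the only ND gene on its strand. Guanine made up 28.1% and cytosine 5.97% of its 519 coding bases, whereas guanine made up 8.00 to 11.6% of the other ND genes. The library kit marks the strand, but whether the counting used it is not given in the sources used here, so reads from ND6 and from transcripts antisense to it may not have been told apart.

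The nuclear members have promoters of their own, and 40 of 47 matched the RefSeq promoter table (GRCm38.p6), with 42 promoters of 250 bases before to 50 after the start. Those without an entry included Ndufa2, Ndufa4l2, Ndufaf6, Ndufb9, Ndufs1 and Ndufs5-ps. Motifs were searched on both strands. The letters AAGATGGCG, the core of the YY1 motif, occurred in 6 of the 42 promoters (14.3%), against 461 of all 32851 promoters (1.40%). The stretches around them are shown on the strand of the gene, with the motif in capitals, because 2 of these genes, Ndufs7 and Ndufaf8, were among the leading changes after HDM. They lie at chr3:51408914-51408941 (Ndufc1), chr6:126849096-126849123 (Ndufa9), chr10:80249465-80249492 (Ndufs7), chr11:120098936-120098963 (Ndufaf8), chr13:73328433-73328457 (Ndufs6) and chr13:114388045-114388067 (Ndufs4), each within the first 50 bases after the start.
Ndufc1: tgcggaacAAGATGGCGccgtccgtagt
Ndufa9: tgtgggagAAGATGGCGgccgccgtccg
Ndufs7: ccgaggccAAGATGGCGgcgctggcggg
Ndufaf8: cagggcccAAGATGGCGgcgccctcgag
Ndufs6: tcaccggcAAGATGGCGgcggtgct
Ndufs4: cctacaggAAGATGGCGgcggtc
The palindromic core of the NRF1 motif, GCGCATGCGC, occurred in 3 of 42 (7.14%), against 319 of all promoters (0.971%), in Ndufa11, Ndufaf4 and Ndufaf5. NRF1 is a textbook activator of nuclear respiratory chain genes, and 2 of its matches are shown, upstream of the start at chr4:24897925-24898024 (Ndufaf4) and chr17:56717657-56717756 (Ndufa11).
Ndufaf4: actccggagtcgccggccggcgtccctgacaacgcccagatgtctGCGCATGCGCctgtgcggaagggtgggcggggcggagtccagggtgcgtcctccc
Ndufa11: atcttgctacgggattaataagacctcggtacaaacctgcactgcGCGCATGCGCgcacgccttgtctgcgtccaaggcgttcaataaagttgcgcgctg
The ETS core CCGGAAG was found in 6 of 42 (14.3%), against 8.86% of all promoters. No 2 of these matches overlapped, and a match is a description of the sequence only. The 42 member promoters had a median GC content of 59.3%, against 52.7% over all promoters. The part of this difference in the shares of matches was not tested.

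Library totals ranged from 11932546 to 26749315 counts, and the mitochondrial chromosome took 1.58 to 22.7% of them. Values below are CPM, counts brought to a common library size with scaling by the TMM method, and a gene was called where the adjusted p of edgeR's quasi-likelihood test was under 0.05. Surfactant and other alveolar type 2 markers, which define lung tissue, were high in every group, with sums of at least 10441 CPM. In 10 libraries the log2 levels climbed with the GC content of the transcript by more than 0.75 per 10 percentage points, here called steep libraries. They were combination mice 1, 5 and 8, anti-IL-4Rα mice 2, 6 and 8, anti-IL-33 mice 4 and 5, and HDM 19 week mice 2 and 7. Combination mouse 2 had the lowest slope of all 43, -1.001. The ND transcripts had 33.0 to 41.1% GC, and the nuclear members 39.9 to 60.4%. In whole lung, fewer cells of a type and less RNA per cell cannot be told apart.

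Per kilobase of gene, ND4 and ND1 were the most abundant ND transcripts and ND6 the least. In saline mice the mean level was 2423 ± 349 CPM per kilobase for ND4, 2011 ± 481 for ND1, 1820 ± 213 for ND2, 1553 ± 318 for ND4L, 1019 ± 88.1 for ND5, 979 ± 262 for ND3 and 252 ± 25.1 for ND6 (SD, n = 5). The neighbours ND4 and ND1, ND1 and ND2, ND2 and ND4L, and ND5 and ND3 were closer than the larger of their SDs. ND6 stood apart, since its highest saline mouse, at 292, was below the lowest value of every other ND gene. In isotype mice ND4 again led at 2663 ± 985 CPM per kilobase and ND6 was again last at 485 ± 143 (SD, n = 7).

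The summed ND level and the summed Nduf level were high together in some mice and apart in others. Summed ND was 83227, 102261, 9691, 12112 and 18998 CPM in combination mice 1, 2, 3, 5 and 8, against 7413 (lowest), 10881 (median) and 16852 (highest) in isotype mice. In both other antibody groups 1 mouse reached far above the rest, anti-IL-4Rα mouse 5 at 55100 and anti-IL-33 mouse 4 at 47022. In saline mice it was 8758 to 12206, in 11 week HDM mice 9197 to 20925, and in 19 week HDM mice 5910 to 15428. Thus 3 of 5 combination mice lay above all 7 isotype mice and the other 2 lay within their range.

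Summed Nduf was 5092, 1201, 1829, 2662 and 4205 CPM in combination mice 1, 2, 3, 5 and 8, against 1370, 1533 and 2377 (lowest, median, highest) in isotype mice. Combination mouse 2, with the highest ND sum of all 43 mice, therefore had a lower Nduf sum than every isotype mouse. The 10 steep libraries held the 10 highest Nduf sums, 2579 to 6417 CPM, against 1119 to 2377 CPM in the other 33. Of the 10 highest ND sums only 5 were in steep libraries, which ranged from 4987 to 83227 CPM, against 4296 to 102261 CPM in the others. The part of transcript GC content in the Nduf level was not tested.

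**Figure D1:**
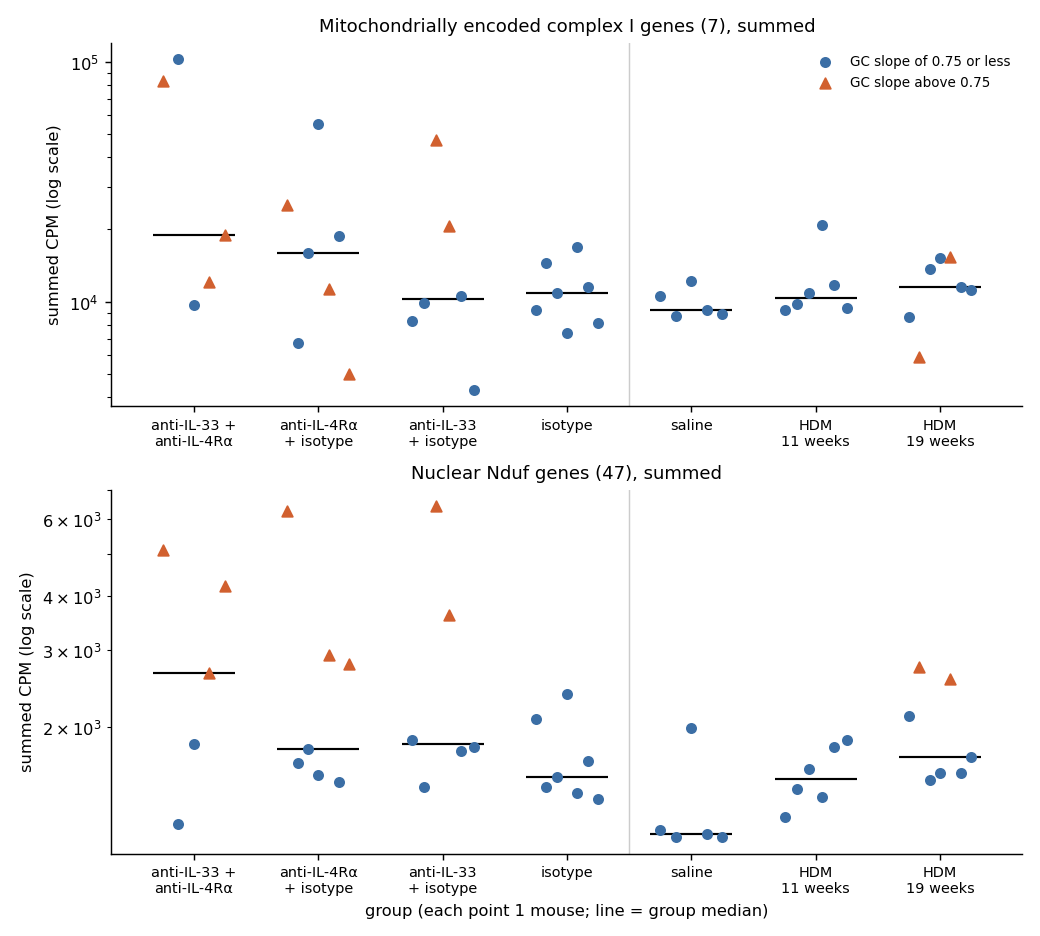
Summed CPM of the 7 ND genes (upper panel) and of the 47 Nduf genes (lower panel), log scale, 1 point per mouse by group, with group medians as bars. Combination mice 1 and 2 are highest for ND at 83227 and 102261 CPM, and the mice with the highest Nduf sums are steep libraries.

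Each mouse can be read against the median of all 43. In combination mouse 2 the 7 ND genes were all above their medians, by a median of 3.05 on the log2 scale, while 13 of 47 nuclear members were above theirs, with a median deviation of -0.68. Combination mouse 1 had the same ND excess, 2.82, but with 41 of 47 nuclear members above, by a median of 1.48. Anti-IL-4Rα mouse 5 resembled combination mouse 2, with ND at 2.27 and nuclear members at -0.16. Both were high in anti-IL-33 mouse 4, with ND at 2.09 and nuclear members at 1.97, in anti-IL-33 mouse 5, at 1.01 and 1.05, and in anti-IL-4Rα mouse 2, at 0.99 and 1.83. Nuclear members alone were high in anti-IL-4Rα mouse 8, with ND at -1.37 and nuclear members at 0.75, and in HDM 19 week mouse 2, with ND at -1.33 and nuclear members at 0.63.

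The log2 ratio of summed ND to summed Nduf counts, which does not depend on library size, gives this balance in 1 value. The ratio was 4.03, 6.41, 2.41, 2.19 and 2.18 in combination mice 1, 2, 3, 5 and 8, against 1.64, 2.79 and 3.58 (lowest, median, highest) in isotype mice. Means were 3.44 ± 1.83 in combination mice (SD, n = 5), 2.68 ± 1.42 in anti-IL-4Rα mice (n = 7), 2.36 ± 0.59 in anti-IL-33 mice (n = 6) and 2.70 ± 0.66 in isotype mice (n = 7). Along the HDM course they were 2.96 ± 0.21 with saline (n = 5), 2.90 ± 0.54 at 11 weeks (n = 6) and 2.54 ± 0.76 at 19 weeks (n = 7). Every group overlapped every other.

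The ratio differed by 0.75 between combination and isotype mice, less than the pooled SD of 1.27, and by -0.44 without combination mice 1 and 2, a setting chosen after seeing the data. Without combination mouse 2 alone it was 0.0042, and over all fits with 1 library left out it ran from 0.0042 to 1.06. Without the steep libraries only combination mice 2 and 3 were left, with ratios of 6.41 and 2.41, against the isotype mean of 2.70. The differences against isotype were -0.34 for anti-IL-33 and -0.01 for anti-IL-4Rα, with pooled SDs of 0.63 and 1.11, and the 3 antibody comparisons share the isotype mice. HDM at 19 weeks differed from saline by -0.42 with a pooled SD of 0.60, and at 11 weeks by -0.06 with a pooled SD of 0.42. With all mice kept, the ratio differed by more than the pooled SD in none of the 7 comparisons. Across groups it averaged 2.23 ± 0.90 in the 10 steep libraries and 2.93 ± 0.93 in the other 33 (SD).

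**Figure D2:**
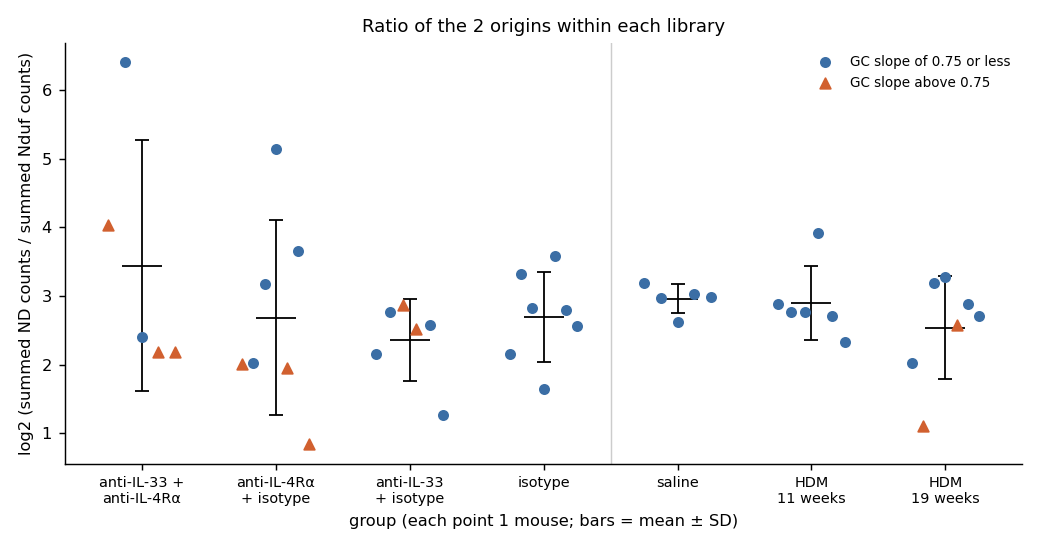
Log2 ratio of summed ND to summed Nduf counts in each mouse, by group, with means and SDs. Combination mouse 2 at 6.41 and anti-IL-4Rα mouse 5 at 5.15 are the highest, and all groups overlap.

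ND transcripts had a higher median fold change than nuclear members between combination and isotype mice, and 6 of 7 were called higher, where 19.0% of all genes tested were called and 12.6% were called higher. Their median log2 fold change was 1.98, against 0.04 over all genes. In the same comparison 10 of 47 nuclear members were called, all higher, among them Ndufs5, whose counts are uncertain. This share, 21.3%, was close to the 19.0% of all genes called in either direction and above the 12.6% called higher. The nuclear median was 0.85 (0.85 also without Ndufs5 and its pseudogene), and 42 of 47 were positive.

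Among the antiporter-like proton pumps, ND2 had 12392, 21490, 1609, 1816 and 2721 CPM in combination mice 1, 2, 3, 5 and 8, against 958, 1695 and 2402 CPM (lowest, median, highest) in isotype mice. Its log2 fold change was 2.28 (SE 0.58, adjusted p = 0.0144). ND4 had 26706, 36575, 3263, 3803 and 5637 CPM in the combination mice, against 2051, 3522 and 5978 CPM in isotype mice, a log2 fold change of 2.05 (SE 0.53, adjusted p = 0.0161). Mice 1 and 2 carried most of the difference: for ND4 the other 3 lay inside the isotype range. ND5, the outermost pump, had 20493, 20763, 1808, 2582 and 4794 CPM in the combination mice, against 1710, 2453 and 3703 CPM in isotype mice, a log2 fold change of 2.00 (SE 0.50, adjusted p = 0.0130).

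ND1, at the joint of the arms beside the ubiquinone site, had 15818, 17680, 2112, 2717 and 4007 CPM in combination mice, against 1431, 2172 and 3782 CPM in isotype mice. Its mean was 8467 ± 7620 CPM in combination mice (SD, n = 5) and 2310 ± 808 CPM in isotype mice (SD, n = 7), a log2 fold change of 1.87 (SE 0.50, adjusted p = 0.0175). Mouse 3 was below the isotype median, and mouse 8 was just above the isotype maximum. Of the small membrane subunits, ND4L had a log2 fold change of 1.98 (SE 0.50, adjusted p = 0.0141). ND3 had 1839, 1056, 296, 317 and 527 CPM in combination mice, against 226, 349 and 513 CPM in isotype mice, and at 1.18 (SE 0.45) it was not called (adjusted p = 0.0562).

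ND6 and ND3 were highest in combination mouse 1, whereas the other 5 ND genes were highest in mouse 2. ND6 had 2603, 531, 158, 290 and 516 CPM in mice 1, 2, 3, 5 and 8, against 150, 223 and 343 CPM in isotype mice, with a log2 fold change of 1.70 (SE 0.51, adjusted p = 0.0259). Mouse 2 was close to mouse 8 for ND6.

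All 7 ND genes exceeded the isotype maximum in 2 or 3 of 5 combination mice, and the calls depended on which of these mice was left out. Without combination mouse 1 the 6 had adjusted p of 0.0654 to 0.434, and none was called (5 of 7 at unadjusted p under 0.05). The log2 fold changes of ND1, ND2, ND4, ND4L and ND5 were then 1.52 to 2.07, while ND6 was at 0.57. Without mouse 2 the same 5 were at 1.41 to 1.56 and ND6 at 1.82, all called. Each of the 5 had a larger fold change without mouse 1 than without mouse 2. Their SEs were 0.50 to 0.60 without mouse 1 and 0.50 to 0.56 without mouse 2. The adjusted p also depends on the other genes of each fit. Without mice 1 and 2 none was called either (0 of 7 at unadjusted p under 0.05), and ND1, ND2 and ND4 were at 0.35, 0.31 and 0.20 on the log2 scale. Without mice 3, 5 or 8 in turn, 7, 7 and 5 were called. With limma's voom and sample quality weights, which down-weight variable libraries, 1 ND gene was called, but 41 nuclear members, 38 of them higher. Voom's share of all genes is not given here.

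**Figure D3:**
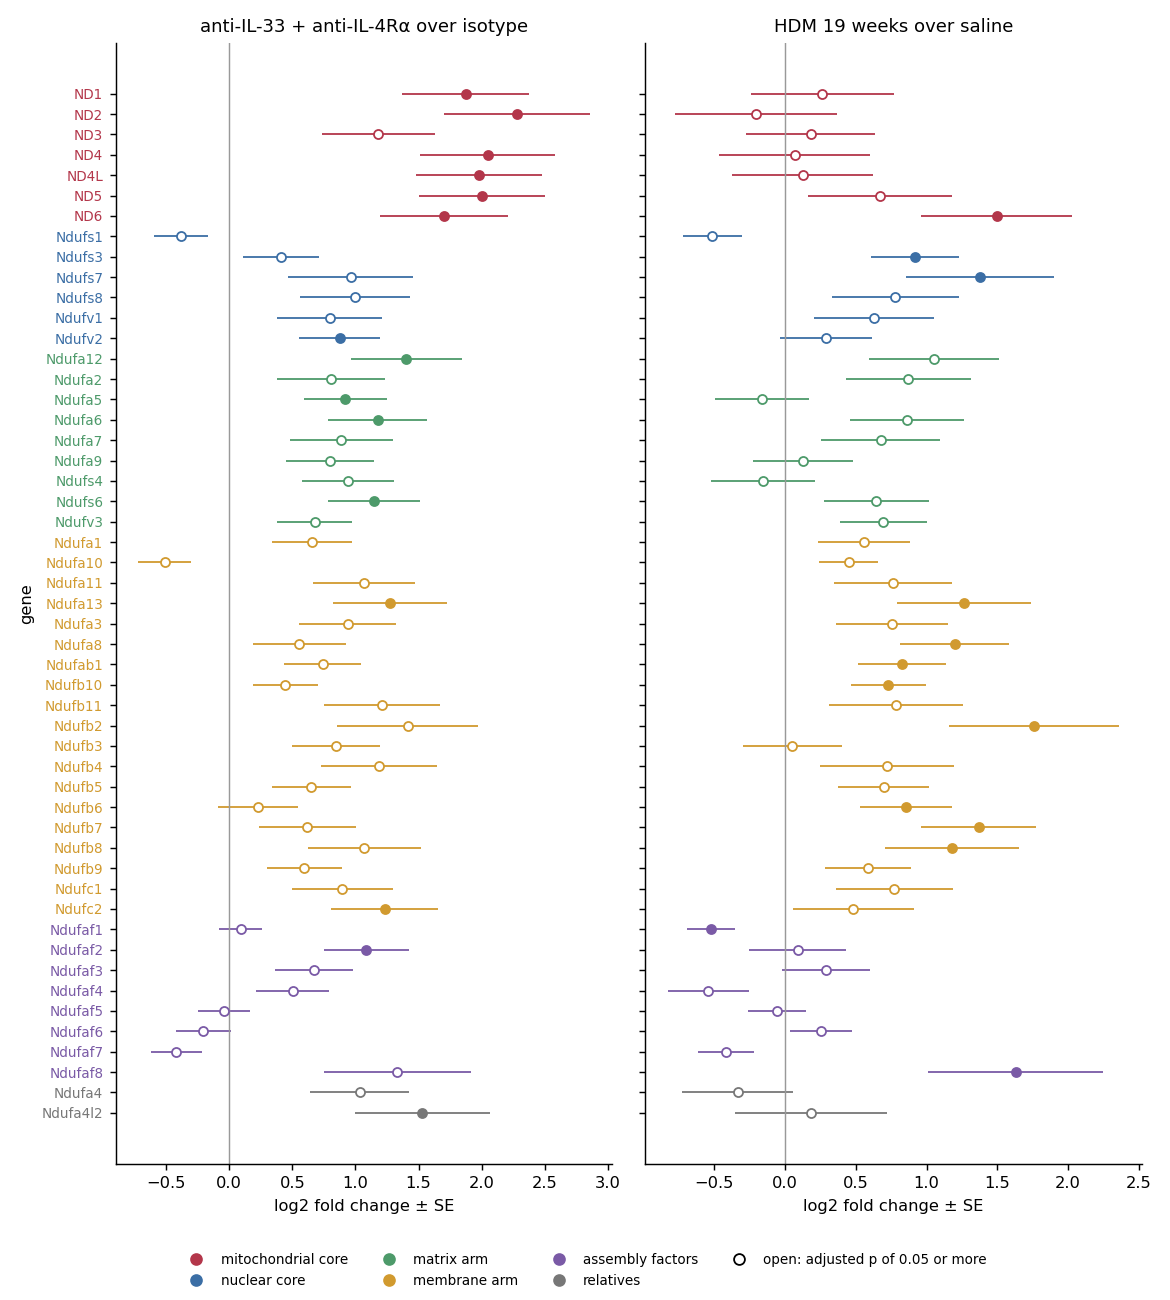
Log2 fold change ± SE of 51 members in the combination over isotype (left) and HDM for 19 weeks over saline (right), coloured by role, filled where the adjusted p is under 0.05. ND genes have a median of 1.98 on the left, and ND6 is the ND gene called on the right, at 1.495.

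The make-up of the mitochondrial pool also differed in single mice. Over the counts of the 13 mitochondrially encoded protein genes, ND genes took 44.7% in combination mouse 2 and 35.0% in combination mouse 1, against 24.1 to 31.5% in isotype mice. In combination mouse 2, ND4 took 16.0% and ND2 9.39%, the highest of all mice, and ND3 0.46% and ND6 0.23%, the lowest. COX1, the catalytic subunit of cytochrome oxidase, took 15.0% there, against 26.6 to 33.3% in isotype mice. Anti-IL-4Rα mouse 5 was similar, with 38.4% for ND and 12.7% for COX1. Anti-IL-4Rα mouse 8 was the reverse, with 17.2% for ND and 56.5% for COX1.

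**Figure D4:**
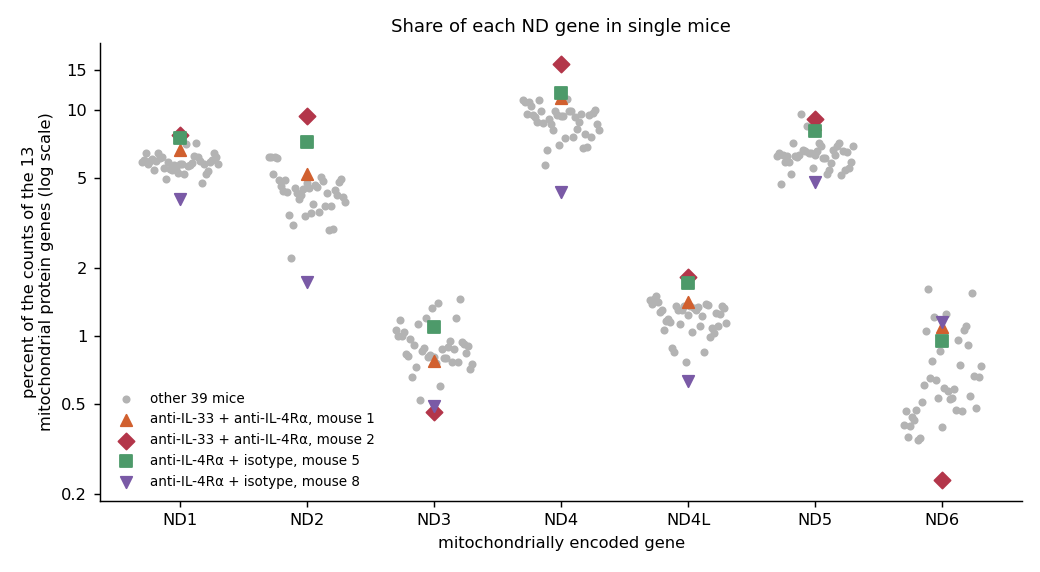
Share of each ND gene in the counts of the 13 mitochondrially encoded protein genes, in percent on a log scale, 1 point per mouse. Combination mouse 2 is highest for ND2 and ND4 at 9.39 and 16.0% and lowest for ND3 and ND6 at 0.46 and 0.23%.

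Of the 7 nuclear core subunits, which hold the flavin, the iron-sulfur clusters and the ubiquinone site, 1 was called in the combination, and the median log2 fold change was 0.80. Ndufv2, an iron-sulfur subunit of the NADH-oxidising tip, had 165, 49.8, 61.2, 78.5 and 137 CPM in combination mice 1, 2, 3, 5 and 8, against 43.2, 54.4 and 63.1 CPM in isotype mice. Its log2 fold change was 0.88 (SE 0.32, adjusted p = 0.0499), and mouse 2 lay below the isotype median while mice 1, 5 and 8 lay above all isotype mice. Ndufv1, which binds NADH and the flavin, had 155, 21.1, 63.9, 126 and 182 CPM in the combination mice, against 43.7, 56.5 and 110 CPM in isotype mice (log2 fold change 0.80, SE 0.41, adjusted p = 0.143).

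Ndufs7, which lines the ubiquinone pocket, had a log2 fold change of 0.96 (SE 0.50, adjusted p = 0.138). Ndufs8, which carries iron-sulfur clusters, was at 0.997 (SE 0.44, adjusted p = 0.0875), and Ndufs3, a scaffold of the same module, at 0.41 (SE 0.30, adjusted p = 0.289). The largest core subunit, Ndufs1, was the exception in sign, at -0.39 (SE 0.21, adjusted p = 0.166). It had 28.3, 49.6, 46.9, 33.5 and 25.3 CPM in combination mice 1, 2, 3, 5 and 8, against 39.8, 49.3 and 55.7 CPM in isotype mice. Its order over the mice was thus the reverse of Ndufv1, lowest in the 3 steep libraries and highest in mouse 2. Its transcript has a GC content of 45.1%, against a median of 51.6% over nuclear members. Ndufv2, with a similar GC content of 44.5%, was instead highest in the 3 steep libraries and lowest in mouse 2. The part of GC content in these orders was not tested.

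Of the supernumerary subunits of the matrix arm 4 of 9 were called, with a median log2 fold change of 0.92, all 9 positive. Ndufa12, which sits on the matrix arm, had 244, 58.9, 32.1, 52.8 and 93.3 CPM in combination mice, against 21.6, 32.8 and 52.5 CPM in isotype mice (log2 fold change 1.40, SE 0.44, adjusted p = 0.0308), with 4 of 5 above all isotype mice. Ndufa6, a partner of the mitochondrial acyl carrier protein, had 157, 46.7, 44.7, 61.4 and 97.1 CPM in combination mice, against 30.9, 32.7 and 47.5 CPM in isotype mice (log2 fold change 1.18, SE 0.39, adjusted p = 0.0370). Mice 2 and 3 lay within the isotype range, although above its median. Ndufs6 and Ndufa5, the other 2 called and named here after their values were seen, were at 1.15 and 0.92.

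In the membrane arm 3 of 20 supernumerary subunits were called, and the median log2 fold change was 0.87. Ndufa13, also known as GRIM-19, had 363, 38.5, 75.3, 129 and 217 CPM in combination mice, against 51.8, 60.5 and 98.8 CPM in isotype mice (log2 fold change 1.27, SE 0.45, adjusted p = 0.0449). Ndufc2, a small membrane subunit, had 170, 25.4, 54.2, 74.1 and 126 CPM in combination mice, against 28.0, 36.0 and 47.9 CPM in isotype mice (log2 fold change 1.23, SE 0.42, adjusted p = 0.0404). In both genes mouse 2 was below every isotype mouse. Among the 8 assembly factors, which act on intermediates and leave the finished enzyme, 1 was called, Ndufaf2 at 1.09 (named after its value was seen), and the median was 0.30. Ndufa4l2, a hypoxia-induced relative of a cytochrome oxidase subunit, had 82.1, 4.86, 9.05, 20.03 and 31.6 CPM in combination mice, against 6.78, 9.52 and 14.2 CPM in isotype mice (log2 fold change 1.53, SE 0.53, adjusted p = 0.0422).

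Ndufs5, another subunit of the membrane arm and the third of its 3 calls, differed in 1 mouse. Combination mouse 2 had 708 counts for Ndufs5 and 52 for Ndufs5-ps, whereas the other 42 libraries had 0 to 41 counts for Ndufs5, 36 of them 0, and 359 to 936 for Ndufs5-ps. Both together came to 50.6 CPM in that mouse, within the 31.8 to 60.4 CPM of the other 4 combination mice. How the counting shared reads between the gene and its pseudogene copy is not given in the sources used here, so the pair is uncertain and no fold change is given.

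The nuclear calls in the combination moved with single libraries in opposite directions. Without combination mouse 2 there were 33, without mouse 3 there were 21, without mouse 5 there were 8, and without mouse 1 or mouse 8 there was 1. Among isotype mice, leaving out 1, 2, 3, 6, 8 or 9 gave 4, 2, 1, 5, 3 and 3, and leaving out mouse 4 gave 11. These counts include Ndufs5, whose counts are uncertain. It was called in 11 of the 12 fits that left out 1 library, all but the one without combination mouse 2. Ndufs5 was thus the 1 nuclear call left without combination mouse 1 or 8 or without isotype mouse 3. With each library's GC slope as a covariate 3 nuclear members were called, and without the steep libraries 1, while 5 ND genes were called in each of these settings. Without the steep libraries only combination mice 2 and 3 were left, mouse 2 being the one with the lowest slope and the highest ND sum, and Ndufa4l2 and Ndufa13 turned to -0.54 and -0.25. Markers of other cells also moved in this comparison: 3 of 3 club cell markers were higher (summed 4936 to 11528 CPM in combination mice, against 1687 to 5947 CPM in isotype mice), as were 3 of 4 tested fat markers (8.73 to 191 CPM, against 2.65 to 7.91 CPM). Also higher were 2 of 5 erythroid and 2 of 7 heart muscle markers. The same held for 1 of 4 ciliated, 1 of 4 endothelial, 1 of 4 fibroblast and 1 of 6 alveolar type 2 markers. Of 5 alveolar type 1 markers 2 were higher and 1 lower, and of 4 macrophage markers 1 was higher and 1 lower. No skeletal muscle or squamous marker was called. The part of these cell types was not tested.

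Neither antibody alone gave a called member. Anti-IL-33 and anti-IL-4Rα each gave 0 called genes of 15979 (0% in both), with unadjusted p under 0.05 for 2878 and 2242 genes. By edgeR's unadjusted p under 0.05, 0 ND and 23 nuclear members differed with anti-IL-33, and 1 ND and 16 nuclear members with anti-IL-4Rα. No member was called by limma's voom in either comparison. DESeq2 called no ND gene in either, no nuclear member with anti-IL-4Rα among those given an adjusted p, and gave the nuclear members none with anti-IL-33. The median log2 fold change of ND genes was 0.60 for anti-IL-33, 0.82 for anti-IL-4Rα and 1.98 in combination mice, and that of nuclear members was 0.79, 0.63 and 0.85, all against the same isotype mice. The ND median was -0.07 for anti-IL-33 without mouse 4 of that group (3 of 7 ND genes positive), and 0.32 for anti-IL-4Rα without mouse 5 of that group (7 of 7 positive). For ND1, as an example, mice ranged from 825 to 11618 CPM with anti-IL-33 and from 1174 to 10786 CPM with anti-IL-4Rα, against 1431 to 3782 CPM with isotype.

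Isotype antibody given on top of HDM did not give a called gene against HDM alone at 19 weeks (0% of genes; 341 at unadjusted p under 0.05, none of them a member; voom and DESeq2 called no member). Median log2 fold changes were -0.08 for ND genes and -0.19 for nuclear members. ND6 was at -0.55, with 150 to 343 CPM in isotype mice, against 209 to 636 CPM in HDM mice, and the groups overlapped.

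At 19 weeks of HDM 1 of 7 ND genes and 12 of 47 nuclear members were called against saline, where 34.8% of all genes were called, 19.2% higher and 15.6% lower. The nuclear share in either direction, 25.5%, was thus below the background of 34.8%, as was the ND share. By direction, 11 of 47 nuclear members were called higher, close to the 19.2% of all genes, and 1 of 47 lower, against 15.6%. These numbers are not settled, since 3 to 17 nuclear members were called in either direction with 1 library left out. The median log2 fold change was 0.64 for nuclear members and 0.18 for ND genes, against 0.01 over all genes. At 11 weeks no member was called (15.4% of all genes were), with 1 nuclear and 0 ND members at unadjusted p under 0.05, and medians of 0.30 and 0.27. DESeq2 likewise called none at 11 weeks, whereas voom called 27 nuclear members, all higher. The share of all genes that voom called is not given here, so its count has no background beside it. Between 19 and 11 weeks no member was called by any of the 3 tools (0.106% of genes were by edgeR; 5 nuclear and 1 ND members at unadjusted p under 0.05).

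ND6 was the ND gene that was higher after 19 weeks. It had 134, 127, 152, 117 and 125 CPM in saline mice 1 to 5, 135 to 235 CPM in 11 week mice, and 209, 351 and 636 CPM (lowest, median, highest) in 19 week mice. All 7 mice at 19 weeks lay above all 5 saline mice, and 2 of the 6 mice at 11 weeks reached the 19 week range. The mean was 369 ± 140 CPM with HDM at 19 weeks (SD, n = 7) and 131 ± 13.02 CPM with saline (SD, n = 5), a log2 fold change of 1.495 (SE 0.53, adjusted p = 0.0280). At 11 weeks against saline it was 0.48 and not called.

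The opposite-strand neighbour ND5 had 2073, 2570 and 4419 CPM in 19 week mice, against 2050, 1751, 1987, 1836 and 1664 CPM in saline mice, so that all 7 again lay above all 5. Its log2 fold change of 0.67 (SE 0.51) was not called (adjusted p = 0.296). ND1, ND2, ND3, ND4 and ND4L were at 0.26, -0.20, 0.18, 0.07 and 0.12, none called. ND6 was called in 7 of 12 fits that left out 1 mouse, with the log2 fold change between 1.31 and 1.60, and not without HDM mouse 7 or saline mice 1, 2, 4 or 5. With the GC slope as a covariate it was not called (adjusted p = 0.166), and without the steep libraries it was at 1.27 (adjusted p = 0.00314).

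Of the nuclear core subunits 2 of 7 were higher after 19 weeks. Ndufs7 had 25.97, 42.1 and 99.4 CPM in HDM mice, against 14.7, 20.7, 34.7, 19.3 and 18.9 CPM in saline mice 1 to 5 (log2 fold change 1.38, SE 0.52, adjusted p = 0.0379). Ndufs3 had 40.3, 50.1 and 76.2 CPM in HDM mice, against 26.9, 26.2, 41.0, 26.2 and 27.1 CPM in saline mice (log2 fold change 0.92, SE 0.31, adjusted p = 0.0198). Saline mouse 3 was the highest of its group in both and the only one to enter the HDM range. Ndufv1, Ndufv2 and Ndufs8 were at 0.63, 0.29 and 0.78, and Ndufs1 at -0.51 (SE 0.21), none called (adjusted p = 0.0522 for Ndufs1).

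Supernumerary subunits of the membrane arm held 8 of the 11 higher calls, of 20 tested, with a median log2 fold change of 0.76. Ndufb2 had 4.88, 15.6 and 33.5 CPM in HDM mice, against 4.95, 3.64, 9.29, 3.97 and 3.57 CPM in saline mice (log2 fold change 1.76, SE 0.60, adjusted p = 0.0216). Ndufb7, one of the subunits facing the intermembrane space, had 37.4, 46.4 and 118 CPM in HDM mice, against 20.3, 22.5, 40.2, 21.4 and 23.2 CPM in saline mice (log2 fold change 1.37, SE 0.41, adjusted p = 0.00877). Ndufa8, of the same kind, was at 1.198 (SE 0.38, adjusted p = 0.0146), and Ndufa13 at 1.26 (SE 0.47, adjusted p = 0.0358). For Ndufb7, 5 of 7 HDM mice lay above all saline mice, and HDM mice 1, 2 and 7 stood above the other 4. Of the 9 supernumerary subunits of the matrix arm edgeR called 0 and DESeq2 0, with 3 at unadjusted p under 0.05 in each, voom called 6, and the median was 0.67.

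Among the 8 assembly factors 1 was called higher and 1 lower, with a median log2 fold change of 0.02. Ndufaf8, a partner of the assembly factor Ndufaf5, had 2.85, 6.89 and 15.8 CPM in HDM mice, against 2.35, 2.92, 4.80, 2.10 and 2.51 CPM in saline mice (log2 fold change 1.63, SE 0.62, adjusted p = 0.0387). Ndufaf1, which helps build the membrane arm, was the member called lower, with 4.39, 7.33 and 8.41 CPM in HDM mice, against 10.4, 8.48, 10.6, 8.32 and 8.88 CPM in saline mice. Its log2 fold change was -0.52 (SE 0.17, adjusted p = 0.0167), and 6 of 7 HDM mice lay below all 5 saline mice. Of 11 further assembly factors tested, without the Nduf prefix, 1 was lower, Tmem126b at -0.78, and none was higher.

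Calls for single nuclear members depended on single mice here as well. Ndufb7, Ndufa8 and Ndufaf1 were called in all 12 fits that left out 1 mouse, while the total went from 3 without saline mouse 2 or 4 to 17 without saline mouse 3. It was 5, 6 and 4 without HDM mouse 1, 2 or 7, and 5 without saline mouse 1 or 5. With the GC slope as a covariate 6 were called, 5 of them lower, and 1 of the 13 members called without the covariate, Ndufaf1, was among them; Ndufv1 was then at -0.51 (adjusted p = 0.00972), and Ndufaf8 and Ndufs7 at -0.053 and -0.040. Without the steep libraries 21 were called, 18 of them higher. The shares of all genes called in these fits are not given here. Alveolar type 2 markers (4 of 6) and macrophage markers (3 of 4) were higher in the same comparison, the macrophage list summing to 1108 to 2718 CPM in HDM mice, against 79.6 to 270 CPM in saline mice. Lower there were 3 of 3 club cell markers (summed 2819 to 5580 CPM in HDM mice, against 10709 to 19365 CPM in saline mice), 3 of 4 fibroblast markers with 1 higher, 3 of 4 tested fat markers, 2 of 4 endothelial, 2 of 4 ciliated and 2 of 5 alveolar type 1 markers. The part of these cell types in the member values was not tested. Skeletal muscle and squamous markers stood out in HDM mouse 1 (1338 and 1854 CPM) and saline mouse 3 (1407 and 6421 CPM), against medians of 3.31 and 0.45 CPM with HDM and 3.11 and 5.65 CPM with saline.

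Transcript GC content ran with the nuclear fold changes of HDM. Over 45 nuclear members (without Ndufs5 and Ndufs5-ps) Spearman's rho between GC content and log2 fold change was 0.54 for 19 weeks of HDM against saline and 0.34 for 11 weeks. At or above the median GC content of 51.5% the median log2 fold change at 19 weeks was 0.75 and 0 of 23 members were negative, whereas below it the median was 0.21 and 8 of 22 were negative. In the combination against isotype rho was 0.24, with medians of 0.89 and 0.82. These are descriptions across genes measured in the same libraries, and genes are not independent replicates.

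**Figure D5:**
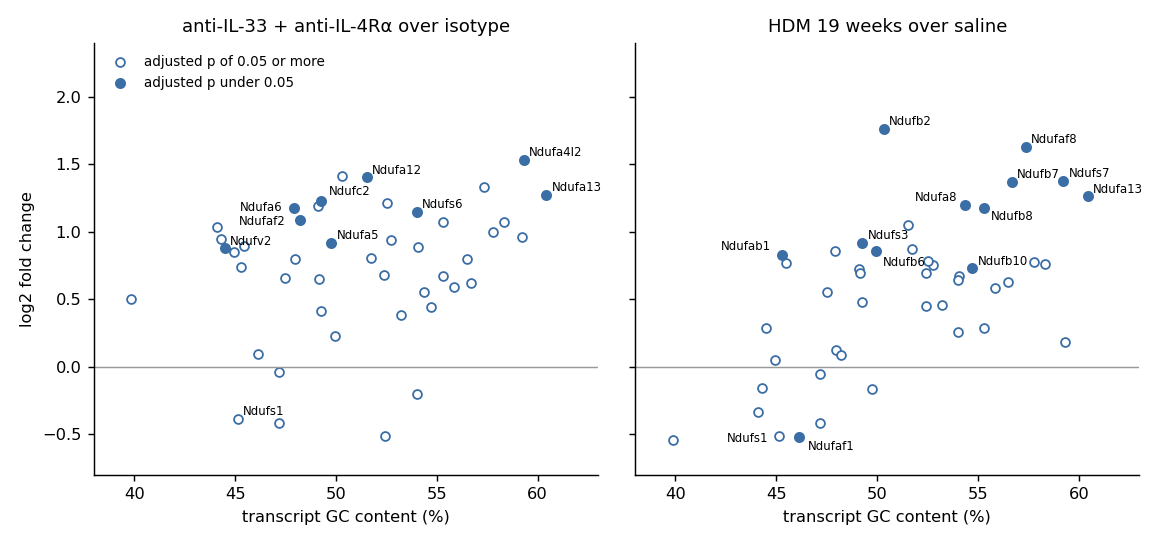
Log2 fold change against the GC content of the transcript for 45 nuclear members, in the combination over isotype (left) and HDM for 19 weeks over saline (right), filled where the adjusted p is under 0.05. On the right, members at or above 51.5% GC are all positive, and the lowest values, those of Ndufs1 and Ndufaf1 among them, lie below that content.

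Members also differed in how far they ranged over the 43 mice. The SD of log2 CPM had a median of 0.95 over ND genes and 0.67 over nuclear members, against 0.67 over all genes tested. Ndufs5 (2.13), Ndufaf8 (1.17) and Ndufb2 (1.13) varied most among nuclear members. The counts of Ndufs5 are uncertain, with 708 in combination mouse 2 and 0 to 41 in the other 42 libraries, 36 of them at 0. The steadiest were the assembly factors Ndufaf1 (0.30), Ndufaf5, an arginine hydroxylase acting on Ndufs7 (0.31), and Ndufaf6 (0.32), which at a median of 1.88 CPM was also a rare transcript. Ndufaf1 spanned 4.39 to 12.3 CPM over all mice, whereas ND2 spanned 505 to 21490 CPM.

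The rest of the oxidative phosphorylation system gave the setting for these values. At 19 weeks of HDM against saline, 5 of 10 nuclear subunits of complex IV were higher, with log2 fold changes of up to 1.85 for Cox8a, and Cox5b at 1.38 had the smallest adjusted p (SE 0.28, adjusted p = 2.1e-04), while 3 of 9 were higher and 1 lower in complex III, 3 of 14 higher in ATP synthase and 1 of 4 in complex II. The other 6 mitochondrially encoded protein genes had a median of 0.38 and a smallest adjusted p of 0.191. Of 8 regulators of mitochondrial biogenesis 3 were higher and 1 lower, with a median log2 fold change of -0.14. The lower one was Gabpa, at -1.005 (SE 0.38, adjusted p = 0.0360). Ppargc1b, a coactivator of respiratory genes, was at 2.71 (SE 0.28, adjusted p = 3.1e-09) after 19 weeks and at 1.91 (SE 0.28, adjusted p = 3.4e-06) after 11 weeks. Of 16 genes of mitochondrial transcription and RNA handling 0 were higher and 4 lower.

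In the combination against isotype other mitochondrially encoded genes were called too. Of the 6 other protein genes 4 were higher, among them CYTB, the mitochondrial subunit of complex III, at 1.86 (SE 0.48, adjusted p = 0.0155), with a median of 1.61, and 1 of 2 mitochondrial rRNAs was higher. Nuclear subunits were called higher in 2 of 9 cases for complex III, 1 of 10 for complex IV and 1 of 14 for ATP synthase. The smallest adjusted p was 0.0589 in complex II and 0.0977 among the 8 regulators of mitochondrial biogenesis, while 1 of 16 genes of mitochondrial transcription and RNA handling was higher.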

How the data were processed

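RNA sequencing libraries of 43 whole lungs were analysed from expected counts per gene that the authors deposited, of which 76.8% of nonzero values were whole. Per the labels, libraries were made with a stranded mRNA kit from 500 ng RNA with 12 PCR cycles and read in 33 cycles. The genome build was mm10 per the submitters' processing notes. The aligner, counter, annotation and use of strand were not stated in the sources used here. Reads of 33 bases from near-identical copies, including nuclear copies of mitochondrial sequence, may have been shared or dropped.

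Expected counts were rounded and library totals of 11932546 to 26749315 counts limit the precision of rare members. Gene IDs were matched to symbols (24375 of 24475). edgeR 4.0.16 (filterByExpr, TMM, quasi-likelihood test, 2-sided, 36 residual degrees of freedom) was fitted on all 7 groups with R 4.3.3, with Benjamini-Hochberg adjustment over 15979 genes and a threshold of 0.05. The script was tested on simulated data. The ND to Nduf ratio carries no p. Alternatives were DESeq2 1.42.0, limma 3.58.1 (voom), other size factors, a lower filter, the compared groups alone, the replicate number as a block, the GC slope as a covariate or limit, and each library left out.

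Named members were the ND genes, the nuclear core subunits (1 of which enters the counts and medians but is not reported singly here), up to 6 nuclear members per direction and comparison with the largest called change, and the 3 most and 3 least variable. From other lists up to 4 genes per comparison with the smallest adjusted p were named, or the gene behind a count of 1. The members and lists were chosen with earlier results of these data known. Sequences came from RefSeq tables (GRCm38.p6) and the GRCm38 transcripts; protein sequences were not used here.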

Additional observations from a re-analysis of the deposited data

Results flagged for a closer look

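Of 77 pairs of a group and a measure 10 had a highest or lowest mouse unusually far from the others. This was judged by the gap of that mouse to the nearest one as a share of the group's range (Dixon's test). Chance alone gives about 1 in 20 where measures are independent. Summed ND, the ND to Nduf ratio and the single ND genes share counts, so the 10 flags cannot be set against that rate. HDM 11 week mouse 4 was the highest of 6 in 6 measures, with gaps of 0.650 for the log2 ND to Nduf ratio, 0.6999 for summed ND, 0.681 for ND1, 0.676 for ND4, 0.716 for ND4L and 0.718 for ND5. It had 20925 CPM of summed ND. Saline mouse 3 was the highest of 5 for summed Nduf (gap 0.939), with 1988 CPM. HDM 19 week mouse 2 was the lowest of 7 for ND1 (gap 0.655) and ND3 (gap 0.613), with 1070 and 113 CPM. HDM 19 week mouse 1 was the lowest of 7 for the ND share of the 13 mitochondrially encoded protein genes (gap 0.644), at 22.8%. Whether the samples or the libraries differ was not tested. Combination mice 1 and 2 lay far from their group together, and no single gap marks a pair.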

How the results depend on the processing

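For combination against isotype (6 ND and 10 nuclear members called), ND calls were 1 with voom, 0 with the replicate block, 0 without combination mice 1 and 2 (a setting chosen after seeing the data) and 0 to 7 with 1 library left out. Nuclear calls were 3 with the GC slope as a covariate, 41 with voom, 0 with the replicate block, 0 without combination mice 1 and 2, 1 without the steep libraries (2 combination mice left) and 1 to 33 with 1 library left out. For HDM at 19 weeks against saline (1 and 12), ND calls were 0 with the GC covariate, 2 with voom, 2 with only the 2 groups compared and 0 to 1 with 1 library left out. Nuclear calls there were 6 with the GC covariate, 33 with voom, 30 with only the 2 groups compared, 2 with the replicate block, 21 without the steep libraries and 3 to 17 with 1 library left out. For HDM at 11 weeks against saline (0 and 0), ND calls were 1 with only the 2 groups compared, and nuclear calls 1 with the GC covariate, 27 with voom, 4 with only the 2 groups compared and 3 without the steep libraries. The other 4 comparisons gave 0 members under every setting that returned a value; DESeq2 gave no adjusted p to the nuclear members with anti-IL-33. DESeq2 called 7 ND and 15 nuclear members in the combination and 1 and 14 at 19 weeks, and size factors from median ratios, a lower filter and mitochondrial genes left out of library sizes kept 10 to 16 of the members called. Signs turned for Ndufv1 (-0.51), Ndufaf8 (-0.053) and Ndufs7 (-0.040) at 19 weeks of HDM with the GC covariate, and for Ndufa4l2 (-0.54) and Ndufa13 (-0.25) in the combination without the steep libraries. The cause was not tested. How many of all genes each of these settings called is not given here, so the member counts under them have no background. Each difference in the ND to Nduf ratio stayed within 1 pooled SD of its reported value under these settings.

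The replicate numbers did not pair the mice: the correlation of same-numbered mice ran from -0.38 to 0.50 over the 7 comparisons and from 0.04 to 0.39 between combination and isotype mice, and in none was every pair over 0.1. With the replicate block the 6 ND genes called in the combination had log2 fold changes of 1.41 to 2.09, against 1.70 to 2.28 without it. In groups of 5 to 7 mice, with ND levels that differ over 10-fold within the combination group, the number and identity of calls are not settled, and the size of the ND difference there rests on mice 1 and 2.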
